A study of Mus musculus with 16 samples.

Results

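The genes described here are 10 members of the mouse Toll-like receptor family, Tlr1, Tlr2, Tlr3, Tlr4, Tlr6, Tlr7, Tlr8, Tlr9, Tlr11 and Tlr12. They were chosen by symbol from a table of raw read counts for 24421 genes. No cutoff on their values was used, but earlier results of these data were known when they were chosen. All 10 had enough counts to be among the 11978 genes tested. Tlr5 and Tlr13 are in the same table and were not among the genes chosen.

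Bulk RNA-seq was run on type 1 conventional dendritic cells (cDC1s), which were sorted by flow cytometry from the spleens of C57BL6 mice at steady state, with no infection or added ligand. The 16 libraries form 4 groups of 4: mature and immature cDC1s of the genotype Xbp1flIre1fl, and mature and immature cDC1s of the genotype Xbp1fl. Xbp1 in both genotypes, and Ire1 in Xbp1flIre1fl, carried loxP-flanked alleles that were not deleted, so the submitters call both functionally wild type, and all 4 groups carried floxed Xbp1. The comparison of stages asks what distinguishes dendritic cells that have matured in the absence of infection. The labels give neither the gates that parted the stages nor whether replicate libraries represent different animals, so the p-values reflect variation among these libraries, which may be technical.

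Toll-like receptors are membrane proteins that bind microbial lipids, proteins or nucleic acids through leucine-rich repeats and signal through an intracellular TIR domain. TLR1, TLR2, TLR4 and TLR6 act mainly at the cell surface, and TLR3, TLR7, TLR8, TLR9, TLR11 and TLR12 in endosomes, where UNC93B1 brings them. All but TLR3 signal through the adaptor MyD88, TLR3 signals through TRIF, and TLR4 uses both. Mouse cDC1s are known for TLR3, which binds double-stranded RNA, and for TLR11 and TLR12, which bind profilin of Toxoplasma gondii and can act together. Engagement of these receptors drives maturation in infection, whereas the mature cells measured here arose at steady state.

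Tlr3, Tlr11 and Tlr12 lie on different chromosomes, 8, 14 and 4, and had the 3 highest mean levels per length of the 10 members in both stages. Their promoters are shown because the 3 genes were lower together in mature cells. Each window runs from 250 bases before to 50 bases after the start site of RefSeq (assembly GRCm38.p6), at chr8:45410331-45410630 on the minus strand for Tlr3, chr14:50357664-50357963 on the plus strand for Tlr11 and chr4:128618570-128618869 on the minus strand for Tlr12. Capitals mark matches, on either strand, to 5 short motifs: the interferon response core (GAAA, any 2 bases, GAAA), a composite of ETS and IRF motifs (GGAA, any 2 bases, GAAA), the AP-1 motif TGANTCA, the kappa-B motif and the PU box GAGGAA.
Tlr3: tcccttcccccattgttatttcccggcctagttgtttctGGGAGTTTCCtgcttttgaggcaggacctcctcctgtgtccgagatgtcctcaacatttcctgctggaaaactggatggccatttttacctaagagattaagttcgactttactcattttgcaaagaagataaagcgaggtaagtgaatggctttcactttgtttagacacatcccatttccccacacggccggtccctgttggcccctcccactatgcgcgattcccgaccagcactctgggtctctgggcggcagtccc
Tlr11: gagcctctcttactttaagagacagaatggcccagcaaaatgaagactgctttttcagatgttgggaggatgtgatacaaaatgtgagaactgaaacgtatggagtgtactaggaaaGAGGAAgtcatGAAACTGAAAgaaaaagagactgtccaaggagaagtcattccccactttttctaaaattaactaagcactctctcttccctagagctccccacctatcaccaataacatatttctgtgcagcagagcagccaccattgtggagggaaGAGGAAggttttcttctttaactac
Tlr12: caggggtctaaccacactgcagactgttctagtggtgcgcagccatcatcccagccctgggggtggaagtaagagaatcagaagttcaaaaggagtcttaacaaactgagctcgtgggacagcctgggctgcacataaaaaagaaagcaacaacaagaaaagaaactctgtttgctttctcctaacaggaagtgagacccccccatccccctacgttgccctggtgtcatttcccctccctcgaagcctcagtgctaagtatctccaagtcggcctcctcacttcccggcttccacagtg
The Tlr3 window held a kappa-B match at position -211 from the start site and no other match. The Tlr11 window held the interferon response core at -122 and GAGGAA at -133 and at 26, and these matches do not overlap. The Tlr12 window held none of the 5. Among all 32851 promoter windows of the same length, 3.44% held the interferon response core, 2.72% the composite, 7.81% TGANTCA, 8.46% the kappa-B motif and 28.3% GAGGAA. RefSeq windows were matched for 8 of the 10 members, all but Tlr4 and Tlr7. Of the 10 windows of these members, 2 held the interferon response core (in Tlr6 and Tlr11) and 2 the kappa-B motif (in Tlr2 and Tlr3). GAGGAA was in 4 (Tlr1, Tlr8, Tlr9 and Tlr11). These 3 motifs were thus also found in members called higher in mature cells, Tlr6, Tlr2 and Tlr1. A match is a description of letters and does not show that a factor binds.

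Tlr1 and Tlr6 are neighbours on chromosome 5, both on the minus strand (GENCODE M21 on GRCm38, chr5:64924679-64933563 and chr5:64952031-64960097). They share an exact run of 229 coding bases, at chr5:64925537-64925765 in exon 4 of 4 of Tlr1 and at chr5:64953828-64954056 in exon 2 of 2 of Tlr6. It is shown because reads that fall inside it cannot be assigned to either gene.
Tlr1 and Tlr6: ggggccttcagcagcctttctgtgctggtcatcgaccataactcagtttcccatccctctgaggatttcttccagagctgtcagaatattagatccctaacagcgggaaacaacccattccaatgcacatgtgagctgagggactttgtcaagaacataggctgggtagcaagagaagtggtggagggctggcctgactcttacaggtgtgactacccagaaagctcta
Of the 50-base stretches of their exons, 13.6% of those of Tlr1 and 12.3% of those of Tlr6 were found in the other gene. Counting any gene, these shares were 15.4% for Tlr1 and 12.3% for Tlr6, which include the stretches that Tlr1 and Tlr6 share. Other genes with such a stretch were counted as 157 for Tlr1 and 1 for Tlr6. How many stretches each of them held is not given. No other pair of members shared a stretch of 50 bases. How the counting treated such reads is not given in the sources used here, so an unknown part of the counts of Tlr1 and Tlr6 may belong to another gene.

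The libraries held 13948232 to 16572576 counts in mature cells and 15083053 to 17000763 in immature cells. TMM scaling factors ran between 0.886 and 1.00 for mature and between 1.06 and 1.12 for immature libraries. Ccr7, the chemokine receptor that takes mature dendritic cells to T cell zones, measured 4985 to 13418 CPM in mature libraries against 107 to 320 CPM in immature libraries (counts per 1e6 counts after TMM scaling, n = 8 each). The summed CPM of 11 cDC1 markers was 7020 to 10352 in mature libraries, against 10903 to 12133 in immature libraries, and Xcr1, a receptor that marks cDC1s, averaged 572 ± 102 and 782 ± 51.7 CPM (SD, n = 8 each). Defining markers of cDC1s were therefore present in both stages. In bulk RNA, fewer cells of a type and less RNA per cell cannot be told apart.

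Per length of exon, the 3 endosomal receptors known for cDC1s led the 10 members in both stages. Tlr11 averaged 74.9 ± 16.2 CPM per kb in mature and 111 ± 8.37 CPM per kb in immature cells (SD, n = 8 each). Tlr12 followed at 39.6 ± 10.4 CPM per kb in mature and 59.8 ± 3.52 CPM per kb in immature cells, below Tlr11 in 8 of 8 libraries of each stage. Next came Tlr3 at 22.5 ± 7.43 CPM per kb in mature and 45.9 ± 5.76 CPM per kb in immature cells. Tlr2, the shared partner of TLR1 and TLR6, came after it at 21.4 ± 2.31 CPM per kb in mature and 18.4 ± 2.17 CPM per kb in immature cells. In mature libraries Tlr3 exceeded Tlr2 in 5 of 8, so that their order did not hold beyond the spread, whereas in immature libraries Tlr3 exceeded Tlr2 in 8 of 8 with no overlap.

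The other 6 members were far lower. Tlr1 stood at 6.21 ± 1.72 CPM per kb in mature cells, above the next member in 8 of 8 libraries, and at 1.45 ± 0.228 CPM per kb in immature cells. Tlr4, Tlr6, Tlr7 and Tlr9 had means of 0.889 to 2.06 CPM per kb in mature and 1.04 to 1.58 CPM per kb in immature cells, with overlapping ranges between neighbours in that order. Tlr8 was lowest, at 0.417 ± 0.309 CPM per kb in mature and 0.248 ± 0.183 CPM per kb in immature cells.

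**Figure D1:**
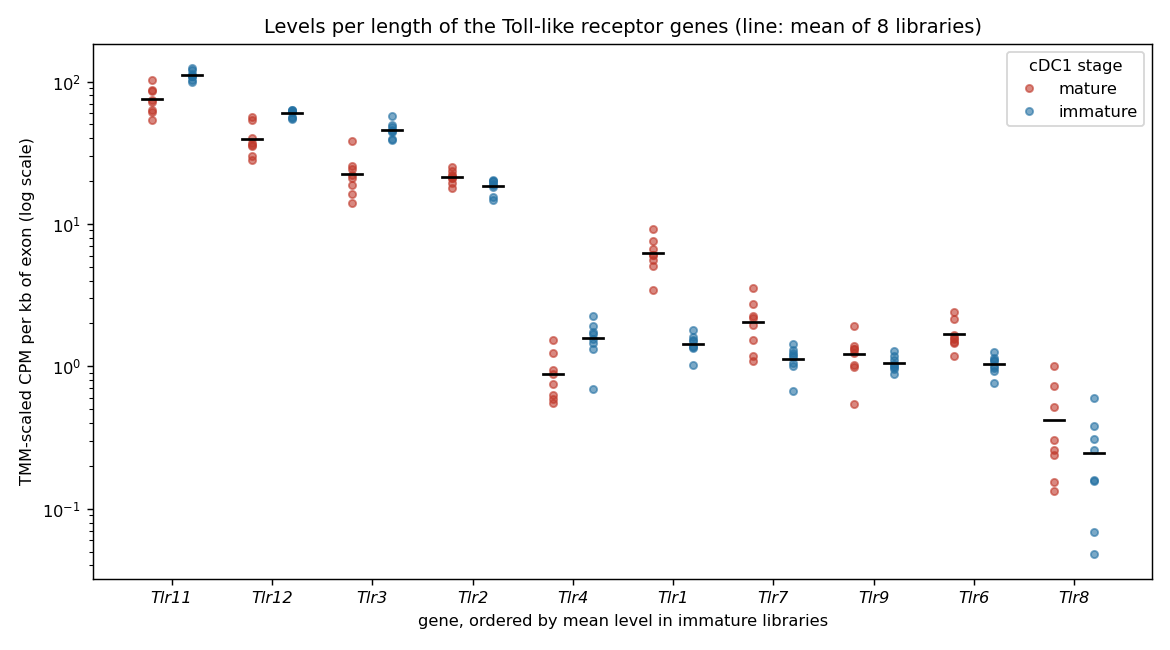
Levels of the 10 Toll-like receptor genes per length, in TMM-scaled CPM per kb of exon on a log scale, with a point per library, mature (red) left of immature (blue) and a line at the mean of 8 libraries. Tlr11, Tlr12, Tlr3 and Tlr2 lie at 14.0 CPM per kb or more in all 16 libraries, and Tlr1 is the member whose mature points stand farthest above its immature points.

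Summed over the 10 members, the level per length was 171 ± 30.4 CPM per kb in mature and 241 ± 16.3 CPM per kb in immature cells (SD, n = 8 each). Tlr3, Tlr11 and Tlr12 together made up 79.4% of that sum in mature cells, between 68.8% and 86.7% over libraries, and 89.7% in immature cells, between 88.7% and 90.6%. The shares of the 2 stages did not overlap. Tlr2 took 13.0% of the sum in mature and 7.60% in immature cells, and Tlr1 took 3.82% and 0.604%.

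Across the 16 libraries, 4 of the 10 members were higher in mature than in immature cells (Tlr1, Tlr2, Tlr6 and Tlr7), 4 were lower (Tlr3, Tlr4, Tlr11 and Tlr12), and Tlr8 and Tlr9 did not pass the test. The test was edgeR's quasi-likelihood F-test of the mean of both genotypes, with Benjamini-Hochberg adjustment over all 11978 genes and a threshold of 0.05. In the same comparison 67.6% of all genes tested were called, 33.4% higher and 34.2% lower, so that calls among 8 of 10 members are close to the share over all genes. The median log2 fold change was 0.21 over the members and -0.01 over all genes. Only Tlr1 among the members was called higher by over 2-fold, against 12.3% of all genes, and only Tlr3 was called lower by over 2-fold, against 1.45% of all genes. The values of mature and immature libraries did not overlap for Tlr1 and Tlr3, which was so for 33.0% of all genes.

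**Figure D2:**
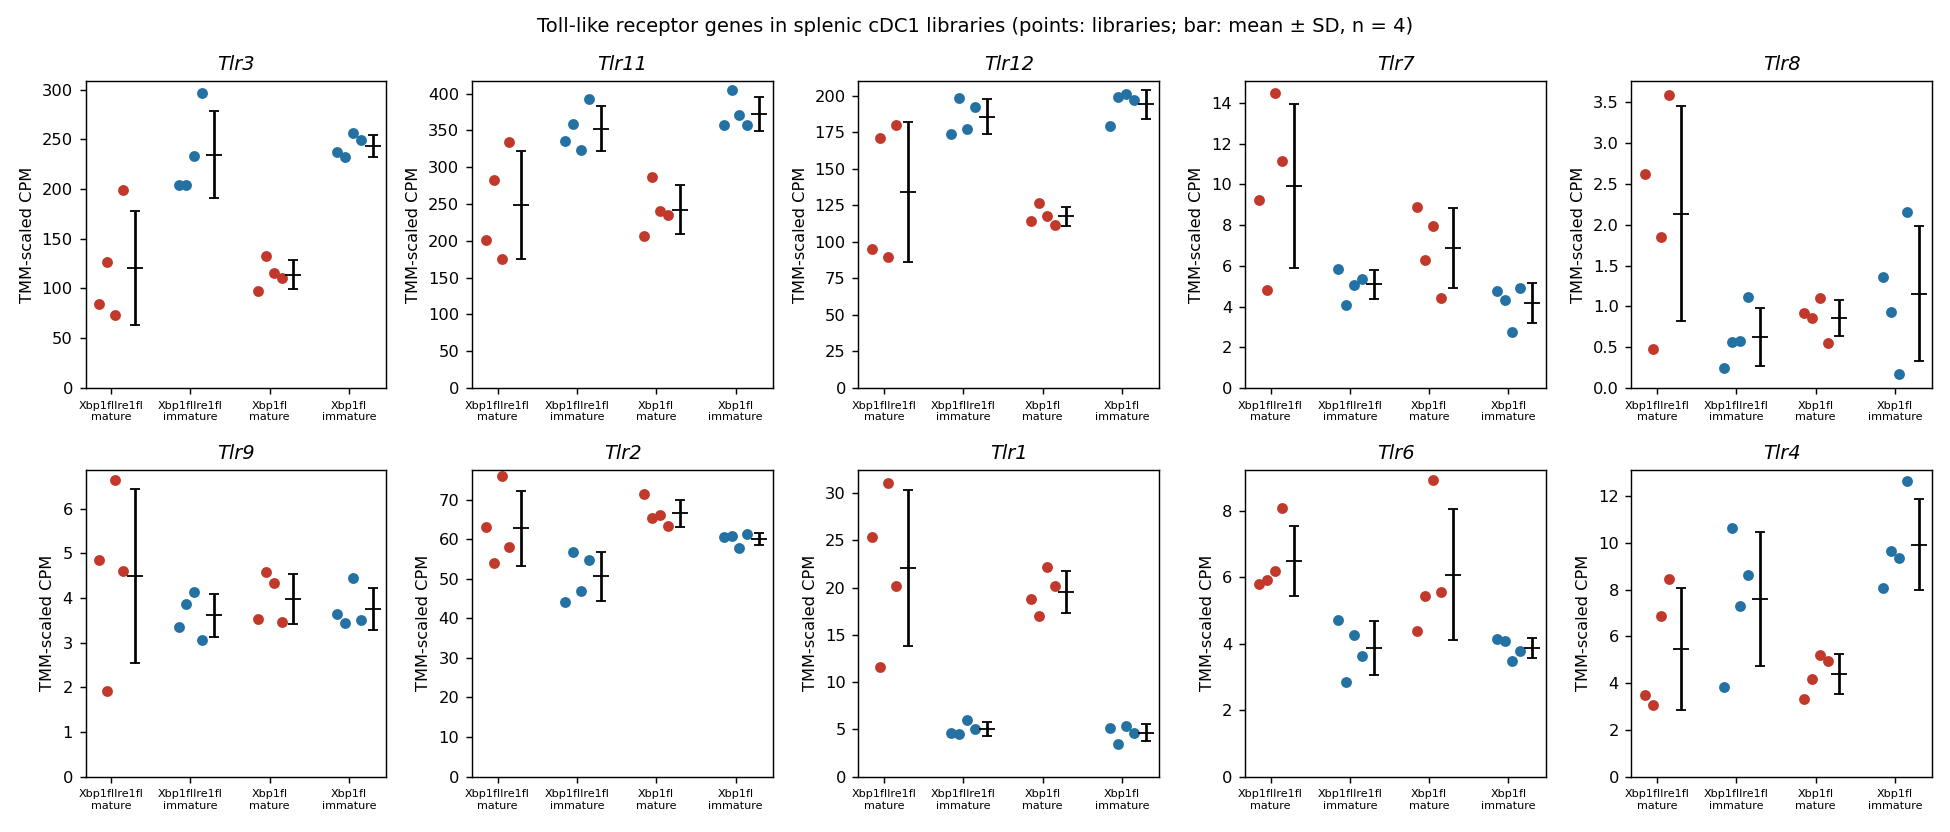
TMM-scaled CPM of each Toll-like receptor gene in the 16 libraries, 4 to a group, mature in red and immature in blue, with the mean and SD beside each group. Tlr3, Tlr11 and Tlr12 are lower and Tlr1 higher in the mature groups, and the points of mature Xbp1flIre1fl spread most widely for these 4 genes.

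Tlr3, the receptor for double-stranded RNA, was lower in mature cells of both genotypes. It measured 84.0, 127, 72.9 and 199 CPM in mature against 204, 204, 233 and 297 CPM in immature Xbp1flIre1fl cells. In Xbp1fl cells it measured 97.0, 133, 115 and 110 CPM in mature against 237, 232, 256 and 249 CPM in immature libraries. Every mature library lay below every immature library, and replicate 4 of mature Xbp1flIre1fl came closest. The means were 117 ± 38.7 CPM in mature and 239 ± 30.0 CPM in immature cells (SD, n = 8 each), a log2 fold change of -1.03 ± 0.17 (SE, edgeR adjusted p = 8.08e-05).

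Tlr11 and Tlr12, the receptors for profilin, were also lower in mature cells, by less. Tlr11 measured 201, 283, 175 and 334 CPM in mature against 335, 359, 323 and 393 CPM in immature Xbp1flIre1fl cells. In Xbp1fl cells Tlr11 measured 206, 287, 241 and 236 CPM in mature against 357, 405, 370 and 357 CPM in immature libraries. The Xbp1fl stages did not overlap, whereas replicate 4 of mature Xbp1flIre1fl lay within the immature range. The means of Tlr11 were 245 ± 53.0 CPM in mature and 362 ± 27.4 CPM in immature cells, a log2 fold change of -0.56 ± 0.11 (SE, edgeR adjusted p = 0.000298).

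Tlr12 measured 95.4, 171, 89.8 and 180 CPM in mature against 174, 199, 178 and 193 CPM in immature Xbp1flIre1fl cells. In Xbp1fl cells Tlr12 measured 115, 127, 117 and 111 CPM in mature against 180, 199, 202 and 197 CPM in immature libraries. The mature Xbp1flIre1fl libraries fell into a low pair, replicates 1 and 3, and a high pair, replicates 2 and 4, of which replicate 4 overlapped the immature range. The means of Tlr12 were 126 ± 33.1 CPM in mature and 190 ± 11.2 CPM in immature cells, a log2 fold change of -0.60 ± 0.12 (SE, edgeR adjusted p = 0.000489).

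The ratio of Tlr11 to Tlr12 within a library overlapped between the stages. Per length it was 1.60 to 2.20 with a median of 1.94 in mature libraries, and 1.75 to 1.98 with a median of 1.83 in immature libraries. The ratio of Tlr3 to Tlr12 was 0.451 to 0.673 with a median of 0.569 in mature libraries, and 0.627 to 0.940 with a median of 0.773 in immature libraries, so that the ranges overlapped only at their edges.

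Among the surface receptors, Tlr1, which pairs with TLR2 to bind triacylated lipopeptides, differed most. It measured 25.4, 11.6, 31.1 and 20.2 CPM in mature against 4.59, 4.48, 6.04 and 5.02 CPM in immature Xbp1flIre1fl cells. In Xbp1fl cells Tlr1 measured 18.8, 17.0, 22.2 and 20.2 CPM in mature against 5.16, 3.43, 5.37 and 4.63 CPM in immature libraries. Every mature library exceeded every immature library. The means were 20.8 ± 5.77 CPM in mature and 4.84 ± 0.761 CPM in immature cells, a log2 fold change of 2.10 ± 0.16 (SE, edgeR adjusted p = 6.26e-09).

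Tlr6, which pairs with TLR2 to bind diacylated lipopeptides, rose less. Its means were 6.28 ± 1.48 CPM in mature and 3.86 ± 0.564 CPM in immature cells, a log2 fold change of 0.70 ± 0.15 (SE, n = 8 each, edgeR adjusted p = 0.00041). Per length, the ratio of Tlr1 to Tlr6 was 2.18 to 5.61 in mature libraries, against 0.939 to 1.75 in immature libraries, with no overlap. Tlr1 counts were higher in the same mature libraries, and the part of reads from the sequence that both genes share in the difference of Tlr6 was not tested. Within Xbp1fl the call for Tlr6 was lost without replicate 3 of the mature libraries, at a log2 fold change of 0.41 (edgeR adjusted p = 0.0843).

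Tlr2 itself differed little, at 64.6 ± 6.97 CPM in mature cells, against 55.4 ± 6.55 CPM in immature cells (SD, n = 8 each). Its log2 fold change was 0.23 ± 0.07 (SE, edgeR adjusted p = 0.00699). This call depended on the scaling. The median of all genes lay at -0.01 with TMM, at -0.13 with upper quartile scaling and at -0.23 with library sizes alone, and Tlr2 stood at 0.11 (adjusted p = 0.168) and -0.00022 (adjusted p = 0.998) in the last pair. Per length, the ratio of Tlr2 to Tlr1 was 2.71 to 5.17 in mature libraries, against 8.61 to 19.6 in immature libraries, which did not overlap.

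Tlr4, the receptor for lipopolysaccharide, was low and variable. It measured 3.50, 3.06, 6.86 and 8.44 CPM in mature against 3.85, 10.6, 7.30 and 8.64 CPM in immature Xbp1flIre1fl cells. In Xbp1fl cells Tlr4 measured 3.30, 4.19, 5.22 and 4.93 CPM in mature against 8.05, 9.66, 9.36 and 12.6 CPM in immature libraries. The stages did not overlap in Xbp1fl and overlapped widely in Xbp1flIre1fl. Over both genotypes Tlr4 was lower in mature cells, at a log2 fold change of -0.82 ± 0.22 (SE, edgeR adjusted p = 0.00371).

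Tlr7 and Tlr9, whose products bind single-stranded RNA and unmethylated CpG DNA and which are known for their expression in plasmacytoid dendritic cells and B cells, were low, as was Tlr8. Tlr7 averaged 8.41 ± 3.35 CPM in mature and 4.63 ± 0.942 CPM in immature cells (SD, n = 8 each), a log2 fold change of 0.84 ± 0.20 (SE, edgeR adjusted p = 0.00118). Tlr9 averaged 4.24 ± 1.36 CPM in mature and 3.68 ± 0.451 CPM in immature cells and missed the threshold (log2 fold change 0.20 ± 0.18, edgeR adjusted p = 0.346). Without replicate 2 of mature Xbp1flIre1fl, the library with the least Tlr9 at 1.91 CPM, Tlr9 was called higher at 0.32 (edgeR adjusted p = 0.0349).

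Tlr8, whose mouse protein responds weakly to the ligands of the human receptor, had the lowest counts of the members, 3 to 57 in a library. It measured 2.63, 0.477, 1.85 and 3.59 CPM in mature against 0.248, 0.560, 0.575 and 1.12 CPM in immature Xbp1flIre1fl cells. In Xbp1fl cells Tlr8 measured 0.921, 0.851, 1.10 and 0.555 CPM in mature against 1.36, 0.931, 0.171 and 2.15 CPM in immature libraries. A level of 3 counts, the limit that a count of 0 allows, corresponds to 0.161 to 0.231 CPM in these libraries. Over both genotypes its log2 fold change was 0.66 ± 0.43 (SE, edgeR adjusted p = 0.182).

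Within each genotype the same contrast gave like directions for 9 of the 10 members. Within Xbp1flIre1fl, Tlr1, Tlr2, Tlr6, Tlr7 and Tlr8 were called higher and Tlr3, Tlr11 and Tlr12 lower, which makes 8 of 10 against 53.5% of all genes (27.4% higher and 26.1% lower). Within Xbp1fl, Tlr1, Tlr6 and Tlr7 were called higher and Tlr3, Tlr4, Tlr11 and Tlr12 lower, which makes 7 of 10 against 56.8% of all genes (28.4% higher and 28.3% lower). With library sizes alone, 1 member was called higher and 4 lower within Xbp1fl. Tlr8 is the exception in direction, at 1.76 ± 0.60 in Xbp1flIre1fl (SE, edgeR adjusted p = 0.0207) and -0.43 ± 0.61 in Xbp1fl (SE, edgeR adjusted p = 0.567).

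Several of these calls within a genotype were lost, and others gained, when a single library was left out. In Xbp1flIre1fl, Tlr8 was no longer called without replicate 4 of the mature libraries (adjusted p = 0.0754) or replicate 1 of the immature libraries (adjusted p = 0.0622). Tlr12 there, at -0.47 ± 0.17, was lost without mature replicate 1 or 3 and without immature replicate 2 or 4 (edgeR adjusted p of 0.0658 to 0.103). Tlr2 there, at 0.31 ± 0.10, was lost without mature replicate 3 (adjusted p = 0.0622) or immature replicate 1 (adjusted p = 0.0521). Tlr4 there, at -0.48 ± 0.31, was called without mature replicate 4, at -0.78 (edgeR adjusted p = 0.0457). Tlr9 there was called without mature replicate 2, at 0.56 (edgeR adjusted p = 0.0175). In Xbp1fl, Tlr7, at 0.72 ± 0.28, was lost without mature replicate 1, 2 or 3 or immature replicate 2 or 3 (edgeR adjusted p of 0.0506 to 0.123).

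**Figure D3:**
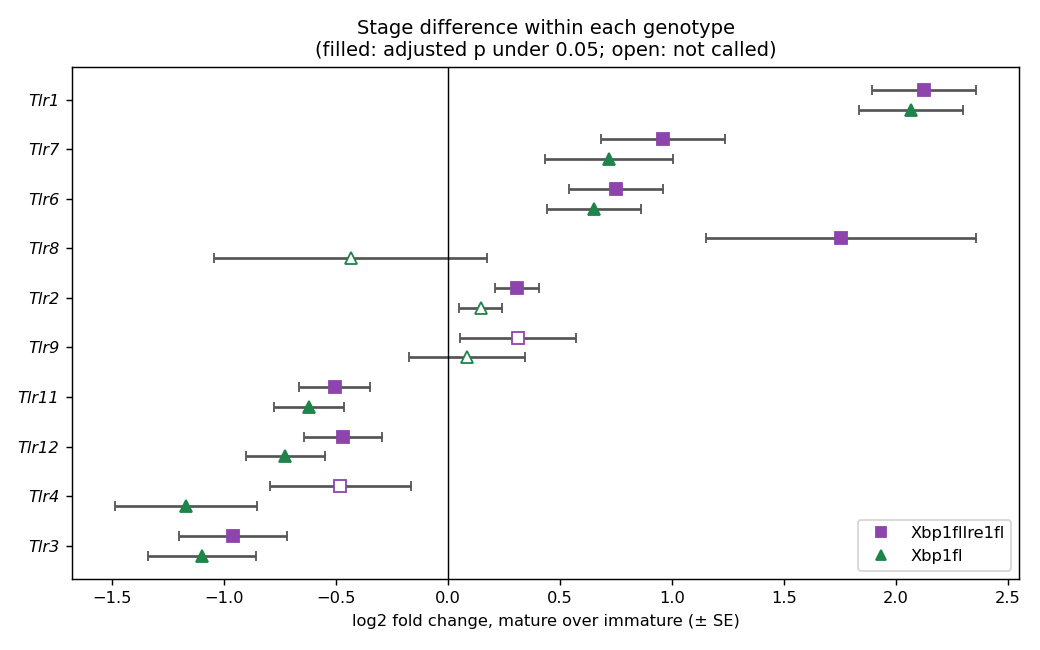
Log2 fold change of mature over immature cells for each Toll-like receptor gene within Xbp1flIre1fl (squares) and within Xbp1fl (triangles), with its SE, filled where the adjusted p is under 0.05. The 2 genotypes lie near each other for Tlr1, Tlr3, Tlr6 and Tlr11, and farthest apart for Tlr8, at 1.76 and -0.43.

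The difference of the stage effect between the genotypes was tested directly. edgeR called 0 of the 10 members and 0 of all 11978 genes (0.00%), DESeq2 and limma also called 0, and at an unadjusted p under 0.05 there were 1 member and 329 genes. That member was Tlr8, with a difference of 2.19 (95% interval 0.39 to 3.99, unadjusted p = 0.0202, adjusted p = 1.00). For Tlr3 the difference was 0.14 (interval -0.58 to 0.86), for Tlr11 it was 0.11 (interval -0.36 to 0.59) and for Tlr12 it was 0.26 (interval -0.27 to 0.78). The interval for Tlr1 was -0.63 to 0.74. These intervals leave room for differences of a size near the stage effects of Tlr11 and Tlr12.

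Xbp1flIre1fl and Xbp1fl were also compared within each stage. In mature cells 0 of 10 members were called, against 0.142% of all genes, and in immature cells 0 of 10, against 0.134% (edgeR, and 0 by DESeq2 as well). At an unadjusted p under 0.05 there was 1 member in each stage. In mature cells this was Tlr8, at a log2 fold change of 1.32 (interval 0.06 to 2.57, unadjusted p = 0.0404, adjusted p = 0.748). In immature cells it was Tlr2, at -0.25 (interval -0.45 to -0.04, unadjusted p = 0.0196, adjusted p = 0.948), with 44.1 to 56.7 CPM in Xbp1flIre1fl against 57.8 to 61.2 CPM in Xbp1fl.

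Mature Xbp1flIre1fl libraries differed among themselves more than the other 3 groups did for 8 of the 10 members. The share of all genes for which this held was not counted. Over genes with enough counts, pairs of these libraries differed by 10.7 to 57.1 in chi-square per degree of freedom, against 5.23 to 15.9 in the other 3 groups. The wider spread is therefore not particular to the members. In log2 CPM, the SD of Tlr3 was 0.65 there, against 0.07 to 0.26 in the other 3 groups. For Tlr12 it was 0.54, against 0.08 to 0.09, and for Tlr11 it was 0.43, against 0.09 to 0.20. Pooled over the groups, the SD of Tlr3 was 0.36, above 97.5% of genes of like level, whose median was 0.11. For Tlr12 that percentile was 93.7 and for Tlr11 88.7, while for Tlr2 it was 62.1 and for Tlr6 54.5.

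Among the mature Xbp1flIre1fl libraries Tlr3, Tlr11 and Tlr12 ran in the order opposite to that of Ccr7, and the other members did not keep that order. Mature Xbp1flIre1fl replicates 1 and 3 had 11915 and 13418 CPM of Ccr7, with 84.0 and 72.9 CPM of Tlr3 and 95.4 and 89.8 CPM of Tlr12. Replicates 2 and 4 had 6571 and 4985 CPM of Ccr7, with 127 and 199 CPM of Tlr3 and 171 and 180 CPM of Tlr12. The mature Xbp1fl libraries had 7998 to 11575 CPM of Ccr7, 97.0 to 133 CPM of Tlr3 and 111 to 127 CPM of Tlr12. They did not keep the opposite order. Replicate 3 of mature Xbp1fl, with the most Ccr7 of that group, had 115 CPM of Tlr3, 241 of Tlr11 and 117 of Tlr12. Replicate 1 of mature Xbp1fl, with 8841 CPM of Ccr7, had less of each, at 97.0, 206 and 115 CPM. The summed cDC1 markers ran the same way as Tlr12, at 7863 and 7020 CPM in replicates 1 and 3 and 10352 and 10159 CPM in replicates 2 and 4. Why the libraries differ was not tested.

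Without replicates 2 and 4 of mature Xbp1flIre1fl, a choice made after their Ccr7 was seen, the differences between stages in that genotype were larger. Tlr3 then stood at -1.58, Tlr11 at -0.91 and Tlr12 at -1.01 on the log2 scale, each still called. Over both genotypes 9 members were called, the 8 above and Tlr9 at 0.37 (edgeR adjusted p = 0.0246). In mature cells Tlr12 was then lower in Xbp1flIre1fl than in Xbp1fl, at -0.34 (edgeR adjusted p = 0.0343), a comparison that keeps the libraries of high Ccr7 only in Xbp1flIre1fl.

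**Figure D4:**
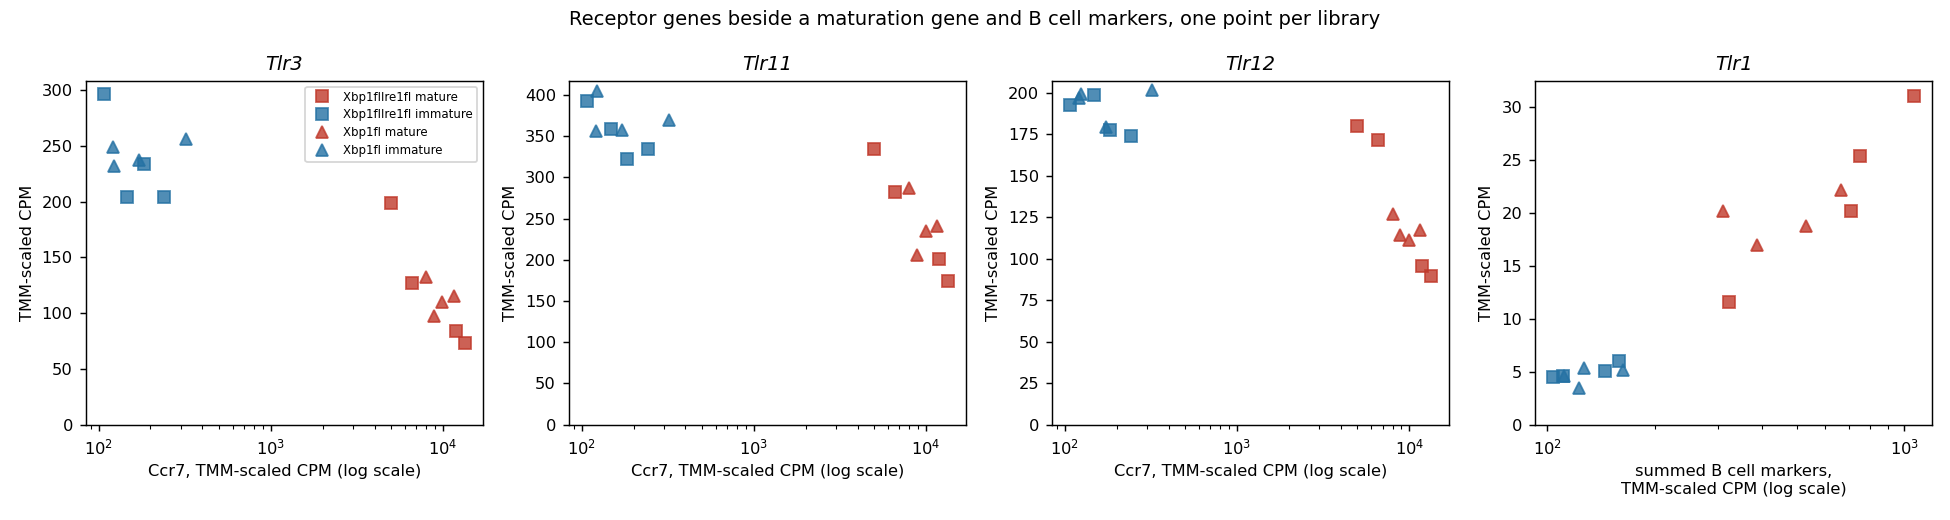
TMM-scaled CPM of Tlr3, Tlr11 and Tlr12 against Ccr7, and of Tlr1 against the summed CPM of 10 B cell markers, with log scales on the horizontal axes and a point per library (red mature, blue immature, squares Xbp1flIre1fl, triangles Xbp1fl). The mature library with 4985 CPM of Ccr7 has the most Tlr3, Tlr11 and Tlr12 of the mature libraries, and the one with the highest B cell marker sum has the most Tlr1.

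Marker genes of other cell types also differed between the stages. Bulk libraries cannot tell whether this RNA came from other cells or from the cDC1s themselves. The sum of 10 B cell markers was 310 to 1068 CPM in mature and 104 to 163 CPM in immature libraries, and all 10 markers were called higher. The most abundant was Ms4a1, the CD20 gene, at 171 CPM in mature against 43.8 CPM in immature libraries. Of 12 macrophage and monocyte markers 7 were higher and 1 lower, with sums of 1006 to 1406 CPM in mature and 784 to 1081 CPM in immature libraries, and Lyz2 the most abundant at 398 and 458 CPM. Of 7 plasmacytoid dendritic cell markers 2 were higher, 1 lower and 4 did not pass, with sums of 183 to 368 CPM and 130 to 156 CPM. Spib led in mature cells (88.9 against 12.5 CPM in immature cells), and Ly6d was also higher (51.2 against 10.5 CPM). Ccr9 led in immature cells at 48.7 CPM, against 29.4 CPM in mature cells. The means of Bst2 (41.3 and 40.4 CPM), Tcf4 (23.8 and 23.6 CPM), Siglech (6.73 and 7.10 CPM) and Klk1 (1.22 and 1.23 CPM) differed little.

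Of 8 markers of type 2 dendritic cells 4 were higher, with sums of 323 to 468 CPM in mature and 221 to 265 CPM in immature libraries, and Clec12a the most abundant at 147 and 151 CPM. Of 6 T cell markers tested 4 were higher and 2 did not pass. Sums for T cells were 45.2 to 82.7 CPM in mature and 24.5 to 38.8 CPM in immature libraries, led by Cd4 at 37.1 and 17.9 CPM. Of 6 NK cell markers 1 was lower and 5 did not pass. Their sums were 61.8 to 106 CPM in mature and 116 to 164 CPM in immature libraries. Klrk1 led them at 57.7 and 116 CPM, and the next most abundant, Gzma, averaged 7.69 and 7.91 CPM. Of 6 neutrophil markers tested 1 was higher and 1 lower. Sums for neutrophils were 5.42 to 44.9 CPM and 6.68 to 42.1 CPM, led by Mpo at 5.96 and 9.57 CPM. No marker gene of these lists was at 0 in all 16 libraries.

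These sums varied among the mature libraries, and the levels of the low members can be set beside them. Replicate 3 of mature Xbp1flIre1fl, with the highest B cell sum at 1068 CPM, had the most Tlr1, Tlr7 and Tlr9 of all libraries, at 31.1, 14.5 and 6.63 CPM. Replicate 2 of that group, with a B cell sum of 322 CPM, had the least Tlr1 and Tlr9 of the mature libraries, at 11.6 and 1.91 CPM. Other libraries did not keep that order: replicate 4 of mature Xbp1flIre1fl and replicate 4 of mature Xbp1fl both had 20.2 CPM of Tlr1, with B cell sums of 709 CPM in Xbp1flIre1fl and 310 CPM in Xbp1fl, the lowest of the mature libraries. Replicate 4 of mature Xbp1flIre1fl, with the highest macrophage and monocyte sum at 1406 CPM, had the most Tlr8 of all libraries, at 3.59 CPM, and the most Tlr4 of the mature libraries, at 8.44 CPM. Replicate 1 of that group, with the next highest sum at 1367 CPM, had 2.63 CPM of Tlr8 and only 3.50 CPM of Tlr4. Tlr4 was lower in mature cells, and the median macrophage and monocyte sum was higher there. The 12 markers in that sum did not all move together, with 7 called higher and 1 lower. Most had higher means in mature cells, among them Vcam1 (348 against 80.5 CPM), Csf1r (112 against 67.5 CPM), Spic (39.3 against 6.81 CPM) and C1qa (25.1 against 11.5 CPM). Only the means of Lyz2 (398 against 458 CPM) and Cd68 (146 against 222 CPM) were lower. The part of B cell or macrophage RNA in the results for Tlr1, Tlr4, Tlr6, Tlr7, Tlr8 and Tlr9 was not tested.

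Genes with the most similar pattern to each of the 5 more abundant members were found by the root mean square difference in centred log2 CPM over the 16 libraries, among 7696 genes. For Tlr3 these were Cln8, at a difference of 0.0951, and Cxcr3, at 0.121. For Tlr11 they were Rnase6, at 0.0874, and Extl3, at 0.0973, and for Tlr12 Sh3tc1, at 0.103, and Slamf8, at 0.112. Tlr11 and Tlr12 lay at 0.113 from each other, which made Tlr12 the 10th nearest gene to Tlr11 and Tlr11 the 3rd nearest to Tlr12. Tlr3 was less like them, with Tlr12 at 0.283 as its 144th nearest gene. For Tlr1 the nearest were Net1, at 0.184, and Cdk17, at 0.188, and for Tlr2 Pwwp2a, at 0.110, and Cand1, at 0.115.

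Around the receptors, genes of the signalling pathway differed in both directions. Their counts stand beside the share over all genes in this comparison, of which 67.6% were called, 33.4% higher and 34.2% lower. Of 5 co-receptor and ligand transfer genes tested 1 was higher, 1 lower and 3 missed the threshold (median of the log2 fold changes -0.05). Ly96, which encodes MD-2, the subunit through which TLR4 binds lipopolysaccharide, was higher at 12.4 ± 2.35 CPM in mature cells, against 3.64 ± 0.643 CPM in immature cells, a log2 fold change of 1.76 ± 0.14 (SE, edgeR adjusted p = 3.72e-09). Its direction was opposite to that of Tlr4. Ly86, which encodes MD-1, the partner of the receptor homologue RP105, was lower at -0.28 ± 0.05. Lbp was listed and had too few counts to test.

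Genes that fold, carry or cleave the endosomal receptors were mixed: of 15 tested 7 were higher, 3 lower and 5 did not pass (median 0.04), so that 10 of 15 called is close to the 67.6% of all genes. That split turned round with the scaling, to 5 higher and 7 lower with upper quartile scaling and 4 higher and 8 lower with library sizes alone. Unc93b1, the carrier of the endosomal receptors, measured 1199 ± 101 CPM in mature and 1369 ± 35.8 CPM in immature cells, a log2 fold change of -0.19 ± 0.05 (SE, n = 8 each, edgeR adjusted p = 0.00337). Hsp90b1, which encodes gp96, the chaperone that folds most Toll-like receptors, was lower at 682 ± 80.6 CPM in mature cells, against 1078 ± 93.5 CPM in immature cells (log2 fold change -0.66), while its cofactor gene Cnpy3 stood at 154 and 150 CPM and did not pass. Rab7b, a small GTPase of late endosomes, was lower at -0.70. Proteases that cleave the endosomal receptors were higher, with Lgmn (asparagine endopeptidase) at 163 ± 36.0 CPM in mature cells, against 34.6 ± 4.19 CPM in immature cells, and Ctsb and Ctss (cathepsins B and S) at log2 fold changes of 0.65 and 0.48.

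Of 6 adaptor genes 4 were lower, 1 higher and 1 did not pass (median -0.40), where 34.2% of all genes were lower and 33.4% higher. Myd88 measured 80.1 ± 12.9 CPM in mature and 110 ± 8.87 CPM in immature cells, a log2 fold change of -0.46 ± 0.08 (SE, edgeR adjusted p = 0.000105). Tirap, which brings MyD88 to TLR2 and TLR4, was lower at -0.58, and Pik3ap1, an adaptor that links the receptors to phosphoinositide 3-kinase, at -0.34. Ticam1, which encodes TRIF, the adaptor of TLR3, stood at 22.7 ± 0.951 CPM in mature cells, against 21.1 ± 1.97 CPM in immature cells and did not pass. Ticam2, which brings TRIF to TLR4, was higher at 11.7 ± 2.37 CPM in mature cells, against 5.42 ± 1.13 CPM in immature cells (log2 fold change 1.10).

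Of 17 kinase and ubiquitin ligase genes downstream of the adaptors 11 were higher, 2 lower and 4 did not pass (median 0.29), against 7 higher and 6 lower with library sizes alone. With 67.6% of all genes called, 13 of 17 is near the share over all genes, of which 33.4% were higher. Traf6, the ubiquitin ligase of the MyD88 pathway, measured 155 ± 21.3 CPM in mature and 67.8 ± 4.60 CPM in immature cells, and Peli1 and Traf3 stood at log2 fold changes of 1.42 and 1.38. Tab1 and Map3k7, a subunit and the kinase of the TAK1 complex, were lower at -0.63 and -0.17. Of 8 transcription factor genes 4 were higher, 3 lower and 1 did not pass (median 0.16), against 3 higher and 4 lower with library sizes alone and 67.6% of all genes called. Rela, Irf1 and Rel were higher at 1.09, 2.69 and 1.36, and Nfkb1, Irf8 and Irf7 were lower at -0.47, -0.40 and -0.47.

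Of 12 tested genes that restrain the receptors 11 were higher and 1 lower, beside 33.4% higher and 34.2% lower among all genes, with a median of 1.16 against -0.01 over all genes. Tank, an inhibitor of TRAF signalling, measured 220 ± 48.4 CPM in mature and 39.3 ± 3.34 CPM in immature cells. Tnip1, a partner of A20, and Nfkbia, which encodes the inhibitor of NF-kappa-B, were higher at 1.65 and 1.76. Sigirr, a TIR-domain protein that limits signalling, was lower at -0.18. Nfkbia is itself a target of NF-kappa-B.

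Of 10 cytokine and chemokine genes known to be induced through these receptors 7 were higher, 1 lower and 2 did not pass (median 0.97). With library sizes alone 6 were higher and 2 lower, and among all genes 33.4% were higher and 34.2% lower. Within Xbp1flIre1fl 4 were higher, 1 lower and 5 did not pass, beside 27.4% of all genes higher. Within Xbp1fl 6 were higher, 1 lower and 3 did not pass, beside 28.4% higher. The direct test of the difference between genotypes called 0 of all genes. Il12b, which encodes a subunit shared by IL-12 and IL-23, measured 1808 ± 533 CPM in mature and 71.3 ± 28.8 CPM in immature cells. Ccl5 and Il15 were higher at 5.81 and 2.85, and Il18 was lower at -0.63. Il12a and Ifnb1 were listed and had too few counts to test. B cell and macrophage marker sums were higher in the same mature libraries, and their part in these differences was not tested.

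**Figure D5:**
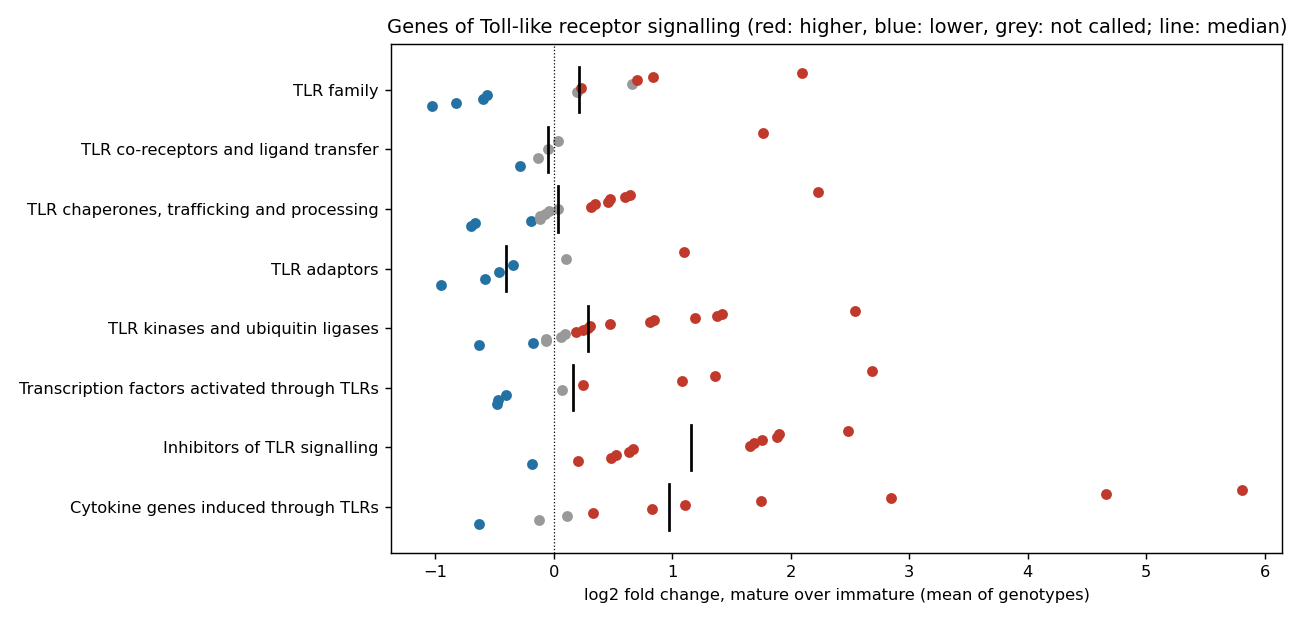
Log2 fold change of mature over immature cells, as the mean of both genotypes, for each tested gene of 8 lists around the Toll-like receptors, with red for higher, blue for lower and grey for not called, and a line at the median of each list. The inhibitors and the cytokine genes have the highest medians, 1.16 and 0.97, and the adaptors the lowest, -0.40.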

How the data were processed

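RNA-seq counts of 16 libraries were analysed, in 4 groups of 4 taken from the labels. Per the submitters' processing notes, the tools included limma 3.42.2, SAMtools 0.1.19, TopHat2 2.1.0, Trimmomatic 0.35 and FastQC 0.11.4, and the build was mm10. The read counter, its annotation and the strandedness are not given in the sources used here. The authors deposited a table of raw counts per gene symbol and a table of log2 values, whose normalization they do not state and which served only as an alternative. All value columns were mapped to a library.

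In R 4.3.3 with edgeR 4.0.16, genes were filtered with filterByExpr, libraries scaled by TMM and 4 group means fitted to all 16 libraries by the robust quasi-likelihood method (12 residual degrees of freedom). Each contrast used the quasi-likelihood F-test, with Benjamini-Hochberg adjustment over 11978 genes and calls under 0.05. The SE was derived as the size of the log2 fold change over the square root of F. Levels per length used the union of GENCODE M21 exons. DESeq2 1.42.0, limma 3.58.1, other scalings and filters, replicate blocks and leaving out each library were alternatives, and the scripts were tested on simulated data. Library totals were 13948232 to 17000763 counts, and limits from counts cover counting error only. The intervals of log2 fold changes rest on the SE above, so they include variation among libraries. The 24 pairs of libraries within groups differed by 5.23 to 57.1 in chi-square per degree of freedom, so none was treated as a duplicate.

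Replicate numbers are shared across the groups in the labels, which do not say what a number marks. Over 7881 genes, the deviations from the group means of same-numbered mature and immature libraries of a genotype were correlated at 0.29 to 0.60 in all 8 pairs, whereas between genotypes the 16 same-numbered pairs gave -0.22 to 0.38. The numbers may thus pair mature with immature libraries within a genotype, though pairs of unlike number were not set beside these. Averaged over the libraries of the other groups, 8 of 16 libraries correlated best with their own number. A fit with 1 block per genotype and number (8 blocks, 6 residual degrees of freedom) was added after the data were seen.

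The members, lists and tests were chosen with earlier results of these data known. Named genes are all members, for each pathway list and direction the 3 called genes of smallest adjusted p, plus Unc93b1, Hsp90b1, Cnpy3, Myd88, Ticam1 and Ly96, the most abundant marker of each other cell type, and the 2 genes most similar to each member of at least 10 CPM. Ccr7 and Xcr1, and Lbp, Il12a and Ifnb1 among untested genes, were named beside them.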

Additional observations from a re-analysis of the deposited data

Results flagged for a closer look

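Each member was looked at in each of the 4 groups of 4 libraries, 40 sets in all, for a library set apart from the other 3. The sets so marked were 2, where chance marks about 1 in 20. Tlr2 measured 57.8 CPM in replicate 3 of immature Xbp1fl, below the other 3 libraries at 60.7, 60.8 and 61.2 CPM, a narrow set in which a small gap stands out. Tlr6 measured 8.06 CPM in replicate 4 of mature Xbp1flIre1fl, above the other 3 libraries at 5.79, 5.92 and 6.17 CPM. That library also had the least Ccr7 of the mature libraries, at 4985 CPM, and the highest macrophage and monocyte marker sum, at 1406 CPM.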

How the results depend on the processing

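The count of 8 members called between the stages over both genotypes was 7 to 9 under all 27 alternatives, and Tlr1, Tlr3, Tlr4, Tlr6, Tlr7, Tlr11 and Tlr12 were called in each of them (Tlr1 1.87 to 2.27, Tlr3 -1.34 to -0.94, Tlr11 -0.78 to -0.50 and Tlr12 -0.87 to -0.52). Leaving out each library in turn gave 8 to 9 over both genotypes, 6 to 9 within Xbp1flIre1fl and 5 to 7 within Xbp1fl. At an adjusted p under 0.01, 4 members were called within Xbp1flIre1fl in place of 8, by the threshold's own construction. Without replicates 2 and 4 of mature Xbp1flIre1fl, 1 member (Tlr12) was called between genotypes in mature cells in place of 0. With library sizes alone, 4 co-receptor genes were called in place of 2, and 3995 higher of 8095 called genes became 2712 of 8804, against 3213 of 8450 with upper quartile scaling. The cause was not tested. With the longest transcript, immature levels were 54.2 CPM per kb for Tlr3 and 2.15 CPM per kb for Tlr4, from shorter lengths.

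Directions turned only for values that had not been called, apart from Tlr2 over both genotypes. With library sizes alone, Tlr2 stood at -0.00022 and Tlr9 at -0.027 over both genotypes, and at -0.088 and -0.15 within Xbp1fl, where Tlr9 was -0.037 with upper quartile scaling. Within Xbp1fl, leaving out libraries put Tlr8 between -0.79 and 0.057. For the difference between genotypes, Tlr1 was -0.036 with limma on the deposited log2 values, and leaving out each library gave -0.15 to 0.27 for Tlr1, -0.21 to 0.32 for Tlr3, -0.028 to 0.34 for Tlr6, -0.014 to 0.48 for Tlr9 and -0.063 to 0.25 for Tlr11. Without the pair of libraries of lowest Ccr7 it was -0.48 for Tlr3, -0.022 for Tlr6, -0.29 for Tlr11 and -0.28 for Tlr12.

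With the replicate block within genotype, added after the data were seen, 8 members were called over both genotypes, 8 within Xbp1flIre1fl and 7 within Xbp1fl, as without it, Tlr3 over both genotypes stood at -1.08, and the difference between genotypes for Tlr1 was -0.0082 in place of 0.058. With the replicate number as a block across all groups that difference was -0.0094. Neither block changed the call of a member or moved a count of calls by over 1.5 times (the co-receptor genes called were 3 in place of 2 with the block within genotype). Genotypes within a stage cannot be compared in the paired fit.

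Within Xbp1flIre1fl, Tlr2 lost its call with upper quartile scaling, with library sizes alone and with only the 8 libraries of the genotype (adjusted p = 0.0978, 0.443 and 0.0552), Tlr12 with no filter and with only those 8 libraries (0.0604 and 0.0972), and Tlr8 with limma (0.0556). Within Xbp1fl, Tlr7 lost its call with upper quartile scaling and with library sizes alone (0.0770 and 0.144) and Tlr6 with library sizes alone (0.0962), and Tlr2 was called with only the 8 libraries (0.0490). Tlr8 had the lowest counts, 3 to 57 in a library.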
